A study of Mus musculus with 6 samples.

Results

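Scavenger receptors for modified lipoproteins are membrane proteins through which macrophages bind and take up oxidised or otherwise altered lipoprotein particles. The genes were chosen by name: Cd36, Scarb1 and Scarb2 of class B, Msr1, Marco and Colec12 of class A, and Cd68, Stab1, Cxcl16 and Olr1, each from a class of its own. All 10 symbols were present among the 24054 rows of the expression tables. Their transcripts were measured by bulk RNA sequencing in macrophages grown from the bone marrow of wild-type C57BL/6 mice for 7 days in medium conditioned by L929 cells, a fibroblast line whose medium supplies macrophage growth factor. The oxLDL group received oxidised low-density lipoprotein (oxLDL) at 50 µg/ml for 24 hours and the untreated group received none. Both groups shared strain, genotype and culture, and each held 3 libraries numbered 1, 2 and 3. The labels give neither the sex nor the age of the mice, do not say whether a library came from a separate animal, and do not explain the word mix in every title.

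For some of these receptors, expression in macrophages is not shut off by the cholesterol they bring in, unlike that of the classical LDL receptor. Uptake can then go on until the cell is laden with lipid and becomes a foam cell, the hallmark cell of the atherosclerotic plaque. This background does not hold for every receptor named above. Class A receptors are trimers with a collagen-like stalk that binds polyanionic ligands. Class B receptors are hairpin proteins that cross the membrane near both ends, and they handle oxidised lipid, fatty acid and cholesteryl ester.

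The libraries held between 13546572 and 15559310 expected counts. The libraries numbered 3 stood apart: on the log2 scale, untreated libraries 1 and 2 correlated across genes at r = 0.984, and library 3 correlated with them at 0.846 and 0.859, and among the oxLDL libraries the values were 0.982, 0.868 and 0.883. Results are therefore given with and without the libraries numbered 3. Without them each group holds only libraries 1 and 2. Of 11 macrophage markers all were detected. Their summed levels were 36548, 27611 and 13060 CPM in untreated libraries 1, 2 and 3 and 16229, 9235 and 11398 CPM with oxLDL. CPM are reads relative to library sizes scaled by the authors with TMM. Summed markers of T and NK cells (5 genes) stayed between 0 and 0.291 CPM over all libraries, those of fibroblasts (5 genes) between 0 and 0.405 CPM and those of erythroid cells (6 genes) between 0.0671 and 0.203 CPM. Neutrophil markers (7 genes) summed to 6.96 to 30.7 CPM untreated and 1.26 to 4.76 CPM with oxLDL, dendritic cell markers (5 genes) to 4.31 to 8.65 and 3.56 to 15.5 CPM, and osteoclast markers (5 genes) to 16.5 to 22.0 and 6.51 to 16.6 CPM. The B cell list (4 genes) summed to 38.3, 22.4 and 3.45 CPM in untreated libraries 1, 2 and 3. With oxLDL it summed to 9.53, 5.04 and 1.75 CPM, nearly all of it Cd79b. The endothelial list (6 genes) summed to 38.3, 78.8 and 199 CPM in untreated libraries 1, 2 and 3 and 196, 239 and 247 CPM with oxLDL. All but traces of it was Vwf and Kdr, while Tek and Cldn5 were at 0 counts in every library. The mast cell list (4 genes) summed to 2.82, 7.69 and 22.0 CPM untreated and 23.3, 26.4 and 36.6 CPM with oxLDL, nearly all of it Kit. For the macrophage, B cell and endothelial sums, untreated library 3 lay within the range of the oxLDL libraries. For the neutrophil, mast cell and osteoclast sums it did not. In edgeR with the library number as a term, 3 of 11 macrophage markers fell and 0 rose (3.98% and 1.91% of all tested genes). Those that fell were Fcgr1, a receptor for IgG (log2 fold change -3.98), Aif1 (-4.82) and Spi1 (-1.13, edgeR adjusted p = 0.0287, 0.0393 and 0.0302). Cd79b of the B cell list and Acp5 of the osteoclast list fell too (-1.83 and -2.72, edgeR adjusted p = 0.0362 and 0.0307). In edgeR without that term 0 genes of the whole table passed. The part of these lists in the results below was not tested.

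The comparison of the groups asked which receptor transcripts differ after exposure to the ligand. Scarb1, the class B receptor for high-density lipoprotein (HDL), was lower with oxLDL in all 3 numbered pairs by similar factors, and it was the only receptor of the 10 to pass edgeR's test over all genes when the library number was a term in the fit. Msr1, Marco and Stab1 were also lower in all 3 pairs (4 of 9 tested receptors with Scarb1, against 26.5% of all tested genes), and Scarb2 and Cd68 were higher in all 3 (2 of 9, against 26.6%), without passing edgeR's test over all 6 libraries. DESeq2 with the number as a term passed Msr1, Marco and Stab1 too. Cd36 and Cxcl16 moved in opposite directions in pairs 1 and 2 on one side and pair 3 on the other. The same direction in all 3 pairs was thus seen in 6 of the 9 receptors that could be tested, and in 53.1% of all tested genes.

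With group as the only term, edgeR's quasi-likelihood test passed 0 of 9 tested receptors at an adjusted p of 0.05 (0% of all 11400 genes tested), while 2 receptors, Marco and Stab1, had an unadjusted p under 0.05. In the same design DESeq2 passed 1 receptor, Marco (7.65% of all genes, 4.83% as lower), and limma-voom passed 0. With the library number as a term, edgeR passed 1 of 9, Scarb1 (5.89% of all genes, 3.98% as lower), and DESeq2 passed 4, Scarb1, Msr1, Marco and Stab1, all lower (16.3% of all genes, 10.1% as lower). With the libraries numbered 3 left out, edgeR with the number as a term passed 7 of 9 (29.9% of all genes), of which 5 were lower (15.8%) and 2 higher (14%). Without the number as a term and without those libraries it passed 5 of 9 (27.1% of all genes). The fit with the term and without those libraries takes libraries 1 and 2 as paired by number, which the check of pairing cannot decide. Its spread rests on how far pairs 1 and 2 differ and on information shared between genes. The words rose and fell of a gene refer to the edgeR fit with the number as a term over all 6 libraries, unless the sentence says otherwise.

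**Figure D1:**
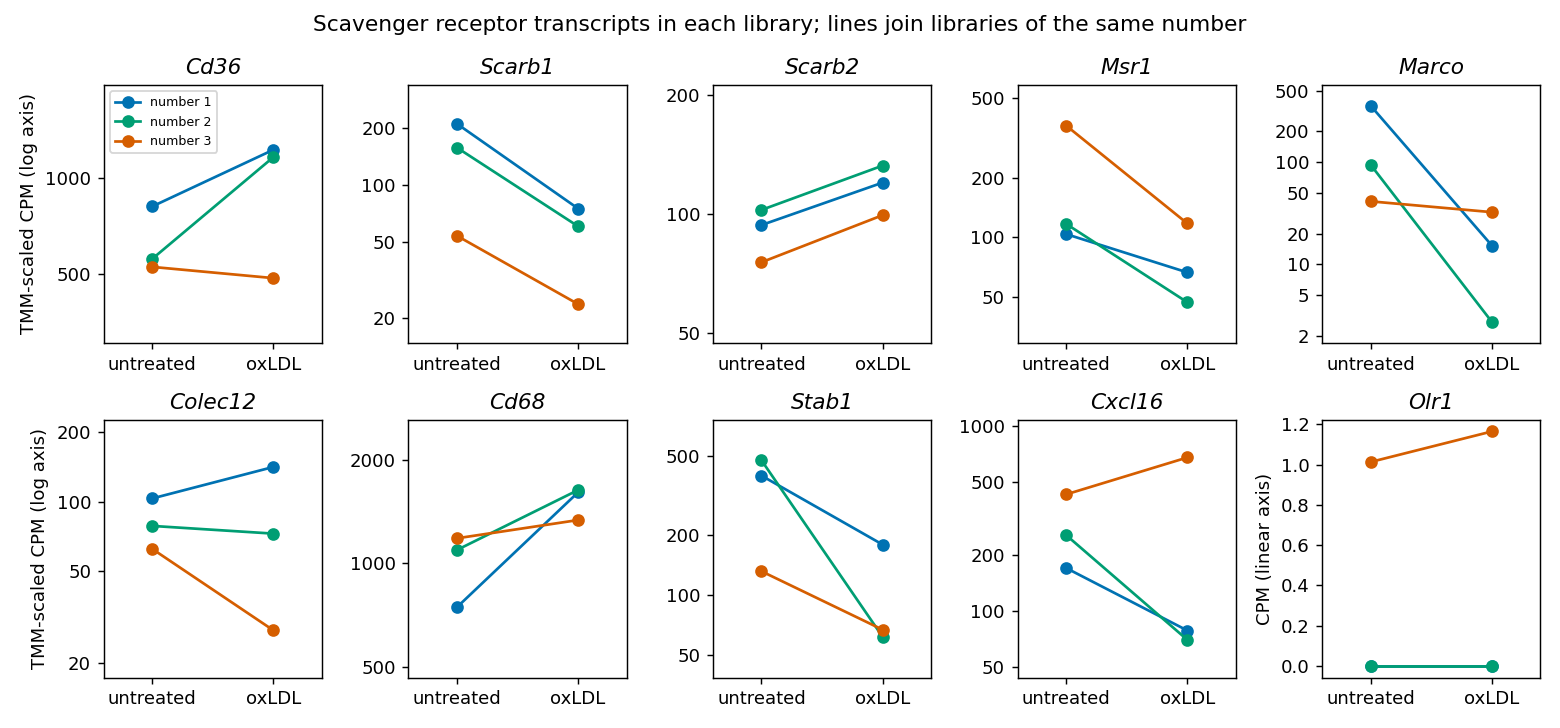
Level of each of the 10 receptor transcripts in each library, in TMM-scaled CPM (log axes, and a linear axis for Olr1), with lines joining libraries of the same number. Scarb1 ran from 54.3 to 211 CPM untreated and from 23.7 to 75.4 CPM with oxLDL. Its lines are nearly parallel, as are those of Scarb2, whereas those of the other tested receptors cross or diverge. In the Olr1 panel the libraries numbered 1 and 2 coincide at 0.

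Scarb1 encodes SR-BI, which exchanges cholesteryl ester with HDL and also binds oxidised LDL. Its level was 211, 158 and 54.3 CPM in untreated libraries 1, 2 and 3 and 75.4, 60.8 and 23.7 CPM in the oxLDL libraries of the same numbers. Every oxLDL library lay below its untreated partner, but the groups overlapped because untreated library 3 was lower than oxLDL libraries 1 and 2. The level was 2.80-fold, 2.60-fold and 2.29-fold lower with oxLDL in pairs 1, 2 and 3. Scarb1 fell, with a log2 fold change of -1.36 ± 0.11 (SE, n = 3 per group; edgeR adjusted p = 0.0286 with the number as a term). Without that term the value was -1.40 ± 0.62 and did not pass (edgeR adjusted p = 0.369). Leaving out the libraries numbered 3 gave -1.42 ± 0.11 in the same design (edgeR adjusted p = 0.00150), and leaving out pair 1 or pair 2 instead left 0 genes of the whole table past the threshold.

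Cd36 encodes the class B receptor through which macrophages take up oxidised LDL and long-chain fatty acids. It measured 814, 556 and 525 CPM in untreated libraries 1, 2 and 3 and 1228, 1165 and 484 CPM with oxLDL. Both oxLDL libraries numbered 1 and 2 lay above every untreated library, and oxLDL library 3 lay below every one of them. The ratio of oxLDL to untreated was 1.51, 2.09 and 0.922 in pairs 1, 2 and 3. Its log2 fold change of 0.51 ± 0.28 (SE; 95% interval -0.21 to 1.24) did not pass with the number as a term (edgeR adjusted p = 0.291) or without it (adjusted p = 0.541). Without the libraries numbered 3, Cd36 rose with a log2 fold change of 0.84 ± 0.18 in the fit with the number as a term (edgeR adjusted p = 0.0223) and passed without that term too (adjusted p = 0.0371). Pair 3 was the only pair in which Cd36 was lower. Leaving out pair 1 or pair 2 instead gave 0.46 ± 0.41 and 0.23 ± 0.34. No gene of the whole table passed in those fits (number as a term, edgeR adjusted p = 0.661 and 0.810 for Cd36).

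The window before an annotated start of Cd36 is shown because Cd36 is the best known receptor for the ligand used here. It covers 250 bases on the minus strand of GRCm38.p6, chr5:17835897-17836146, taken from RefSeq, and capitals mark matches to the searched motifs, here both GGGCGG, the GC box bound by SP1.
Cd36: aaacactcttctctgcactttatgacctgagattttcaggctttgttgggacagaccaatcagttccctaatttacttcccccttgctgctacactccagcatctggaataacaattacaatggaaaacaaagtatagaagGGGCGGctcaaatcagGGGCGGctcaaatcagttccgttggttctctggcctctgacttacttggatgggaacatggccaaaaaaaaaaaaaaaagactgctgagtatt
This start is that of RefSeq: a stretch transcribed just after it was not found in the GENCODE M21 transcripts of Cd36, whereas that of each other matched receptor was found. The GC box occurred at both marked places, which begin 109 and 93 bases before the start, and 33.0% of 32536 windows of the same length held it. The window held no match to the antioxidant response element TGACNNNGC (10.2% of all windows) or to AP-1 as TGANTCA (6.73%). It also lacked the PU.1 core GAGGAA (23.4%) and the E-box CACGTG (6.04%). All 5 motifs were searched on both strands. RefSeq windows were matched for 6 of the 10 receptors: Cd36, Marco, Scarb2, Cd68, Stab1 and Olr1.

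Scarb2 encodes LIMP-2, a class B protein of the lysosomal membrane that carries the enzyme glucocerebrosidase to lysosomes. It measured 93.8, 102 and 75.5 CPM in untreated libraries 1, 2 and 3 and 120, 133 and 99.4 CPM with oxLDL. The ratio was 1.28, 1.30 and 1.32 in the 3 pairs, the narrowest spread of any of the 9 tested receptors, although the groups overlapped. For Scarb2 the log2 fold change of 0.37 ± 0.10 (95% interval 0.11 to 0.64) did not pass over all genes with the number as a term (edgeR adjusted p = 0.0937) or without it (adjusted p = 0.409), nor did it with the libraries numbered 3 left out (edgeR adjusted p = 0.0521).

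Of the class A receptors, Msr1 and Marco were lower with oxLDL in every pair and Colec12 was not. Msr1 encodes the macrophage scavenger receptor SR-A, which takes up acetylated and oxidised LDL. It measured 104, 117 and 365 CPM in untreated libraries 1, 2 and 3 and 66.7, 47.2 and 117 CPM with oxLDL. The libraries numbered 3 held the highest value of each group, and oxLDL library 3 was above untreated libraries 1 and 2 by a small margin, so the groups overlapped. The level was 1.56-fold, 2.48-fold and 3.11-fold lower in pairs 1, 2 and 3. For Msr1 the log2 fold change of -1.20 ± 0.23 (95% interval -1.79 to -0.60) missed the threshold with the number as a term (edgeR adjusted p = 0.0547) as it did in the fit of group alone (adjusted p = 0.377). DESeq2 with the number as a term passed it (adjusted p = 8.29e-05), as did edgeR with the libraries numbered 3 left out (-0.96 ± 0.19, adjusted p = 0.0218). Leaving out pair 1 or pair 2 instead gave -1.49 ± 0.22 and -1.14 ± 0.32. No gene of the whole table passed in those fits (number as a term, edgeR adjusted p = 0.183 and 0.268 for Msr1).

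Marco encodes a class A receptor that binds bacteria and particles as well as modified lipoproteins. Its values spread more widely than those of any other tested receptor: 357, 94.1 and 41.4 CPM in untreated libraries 1, 2 and 3 and 15.2, 2.72 and 32.4 CPM with oxLDL. All 3 oxLDL libraries were below all 3 untreated ones. Of the 9 tested receptors, groups did not overlap for Marco and Cd68, against 21% of all tested genes. The level was 23.4-fold lower in pair 1, 34.6-fold lower in pair 2 and 1.28-fold lower in pair 3. A log2 fold change of -3.43 ± 1.17 did not pass with the number as a term (edgeR adjusted p = 0.143) or without it (adjusted p = 0.274), and DESeq2 without the number passed it (adjusted p = 0.0142). In the fit without the libraries numbered 3 and with the number as a term, Marco fell, at -4.75 ± 0.18 on the log2 scale (edgeR adjusted p = 0.000518). That SE depends on libraries 1 and 2 being paired by number, which the check of pairing cannot decide. Leaving out pair 1 or pair 2 instead gave -2.59 ± 1.48 and -2.45 ± 1.36. No gene of the whole table passed in those fits (number as a term, edgeR adjusted p = 0.516 and 0.531 for Marco). Without the term and without the libraries numbered 3 the value was -4.64 ± 1.14 and missed the threshold (edgeR adjusted p = 0.0562).

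The window before the start of Marco is shown because it had the largest fold change of the receptors. It covers 250 bases on the minus strand of GRCm38.p6, chr1:120505025-120505274, and capitals mark the PU.1 core GAGGAA.
Marco: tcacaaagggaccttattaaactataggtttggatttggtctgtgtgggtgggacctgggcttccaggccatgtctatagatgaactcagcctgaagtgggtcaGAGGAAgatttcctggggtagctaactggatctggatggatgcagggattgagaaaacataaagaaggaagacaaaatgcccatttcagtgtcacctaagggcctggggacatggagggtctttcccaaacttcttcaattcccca
The match lay 146 bases before the start, and 23.4% of 32536 windows of the same length held this core. PU.1, encoded by Spi1, is a lineage factor of myeloid cells. The other motifs listed above for Cd36 had no match in the window.

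Colec12 encodes a collectin of the class A family, known mainly from endothelial cells. It measured 103, 78.5 and 62.4 CPM in untreated libraries 1, 2 and 3 and 141, 72.7 and 27.8 CPM with oxLDL. The ratio was 1.37 in pair 1, 0.926 in pair 2 and 0.444 in pair 3, and the oxLDL libraries spanned a 5.08-fold range. The log2 fold change of -0.26 ± 0.34 (95% interval -1.15 to 0.63) did not pass with the number as a term (edgeR adjusted p = 0.643) or without it (adjusted p = 0.995). Its expected counts were not whole in 6 of 6 libraries, so part of its reads was divided between genes.

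Per kilobase of exon, the summed level of the chosen class A genes relative to that of class B differed between the groups. Members of a class did not move together: Scarb1 of class B was lower in every pair, and Colec12 of class A was not. Cd36 made up most of the class B sum (230 of 334 CPM per kb in untreated library 1 and 347 of 403 in oxLDL library 1). The gene with the largest part of the class A sum differed between libraries. It was Marco in untreated libraries 1 and 2 (185 of 224 and 48.9 of 87.9 CPM per kb) and Msr1 in untreated library 3 (91.1 of 120). Summed over Msr1, Marco and Colec12, class A made up 40.2%, 26.7% and 39.3% of the summed CPM per kb of classes A and B in untreated libraries 1, 2 and 3. With oxLDL it made up 9.47%, 5.51% and 22.9%. The share was lower in every pair and the groups did not overlap (35.4% ± 7.56 untreated and 12.6% ± 9.10 with oxLDL, SD, n = 3). Groups that do not overlap were also seen for 21% of all tested genes taken singly. The smallest drop was that of pair 3. In that pair Msr1 went from 91.1 to 29.3 CPM per kb, Marco from 21.5 to 16.8 and Colec12 from 7.78 to 3.46. The Cd36 ratio there was 0.922, and the reason for the smaller drop was not tested. The share is a sum over the chosen genes and was not tested.

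**Figure D2:**
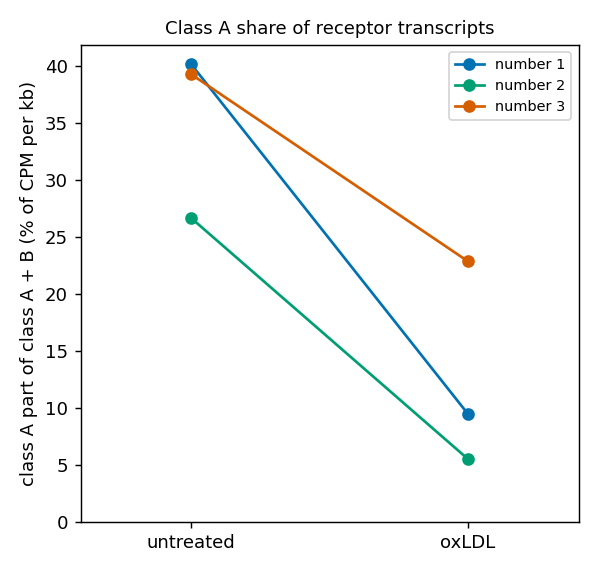
Class A part (Msr1, Marco and Colec12) of the summed CPM per kb of class A and class B (Cd36, Scarb1 and Scarb2) receptors, in percent, in each library, with lines joining libraries of the same number. The untreated libraries lie between 26.7% and 40.2% and the oxLDL libraries between 5.51% and 22.9%.

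Cd68 encodes macrosialin, a heavily glycosylated protein of late endosomes and lysosomes that binds oxidised LDL and serves as a macrophage marker. It had the highest level per kilobase of the 10 receptors in both groups. It measured 746, 1094 and 1183 CPM in untreated libraries 1, 2 and 3 and 1609, 1634 and 1337 CPM with oxLDL. Every oxLDL library was above every untreated one, by a narrow margin in pair 3. The ratio was 2.16, 1.49 and 1.13 in pairs 1, 2 and 3. For Cd68 the log2 fold change of 0.62 ± 0.25 (95% interval -0.03 to 1.27) did not pass with the number as a term (edgeR adjusted p = 0.187) or without it (adjusted p = 0.357). When the libraries numbered 3 were left out, Cd68 rose with a log2 fold change of 0.85 ± 0.19 (number as a term, edgeR adjusted p = 0.0274). Leaving out pair 1 or pair 2 instead gave 0.36 ± 0.32 and 0.64 ± 0.40. No gene of the whole table passed in those fits (same design, edgeR adjusted p = 0.660 and 0.554 for Cd68).

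The window before the start of Cd68 is shown because it held matches to more of the searched motifs than the window of any other matched receptor. It covers 250 bases on the minus strand of GRCm38.p6, chr11:69666171-69666420, and capitals mark the PU.1 core, AP-1 as TGANTCA and the GC box, the last on the opposite strand.
Cd68: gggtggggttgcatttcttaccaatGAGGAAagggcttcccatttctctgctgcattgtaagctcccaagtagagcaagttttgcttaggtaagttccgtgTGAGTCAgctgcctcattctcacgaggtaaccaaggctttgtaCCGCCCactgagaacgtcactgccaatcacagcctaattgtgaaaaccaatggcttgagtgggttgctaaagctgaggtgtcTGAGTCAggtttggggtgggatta
The AP-1 letters occurred 149 and 24 bases before the start, the PU.1 core 225 bases and the GC box 106 bases before it. Among the other matched windows, that of Scarb2 held an antioxidant response element 99 bases before its start and a GC box at 15 bases. The Olr1 window held AP-1 letters 60 bases before its start. The PU.1 core also occurred in the windows of Stab1 (30 bases before the start) and Olr1 (76 bases).

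Stab1 encodes stabilin-1, a large receptor of macrophages and sinusoidal endothelium that takes up modified LDL and matrix fragments. It measured 396, 473 and 131 CPM in untreated libraries 1, 2 and 3 and 178, 61.3 and 66.6 CPM with oxLDL. Each oxLDL library lay below its untreated partner, and oxLDL library 1 lay above untreated library 3. The level was 2.22-fold, 7.72-fold and 1.97-fold lower in pairs 1, 2 and 3. The log2 fold change of -1.67 ± 0.45 (95% interval -2.85 to -0.50) did not pass with the number as a term (edgeR adjusted p = 0.0937) or without it (adjusted p = 0.299), while DESeq2 with the term passed it (adjusted p = 0.000326). Leaving out the libraries numbered 3 gave -2.03 ± 0.49, which passed with the number as a term (edgeR adjusted p = 0.0454) and not without it (adjusted p = 0.0761). Leaving out pair 2 instead gave -1.07 ± 0.21. No gene of the whole table passed in that fit (number as a term, edgeR adjusted p = 0.162 for Stab1). Exons of Stab1 and of its neighbour Nt5dc2 on the opposite strand share 112 bases in GENCODE M21.

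Cxcl16 encodes a membrane-bound chemokine, also called SR-PSOX, that binds oxidised LDL and, once shed, attracts cells bearing CXCR6. It measured 171, 258 and 427 CPM in untreated libraries 1, 2 and 3 and 78.6, 70.0 and 676 CPM with oxLDL. The oxLDL libraries numbered 1 and 2 were the lowest of all 6 and oxLDL library 3 was the highest. The level was 2.18-fold and 3.68-fold lower with oxLDL in pairs 1 and 2 and 1.58-fold higher in pair 3. The log2 fold change of -0.80 ± 0.53 did not pass with the number as a term (edgeR adjusted p = 0.376) or without it (adjusted p = 0.984). Without the libraries numbered 3 and with the number as a term, Cxcl16 fell, at -1.49 ± 0.22 (log2, edgeR adjusted p = 0.0110). Leaving out pair 1 or pair 2 instead gave -0.62 ± 0.75 and -0.23 ± 0.52. No gene of the whole table passed in those fits (same design, edgeR adjusted p = 0.751 and 0.882 for Cxcl16). The opposite sign in pair 3 rests on a single library per group and was not tested. Among all tested genes, 25.6% had pairs 1 and 2 on one side and pair 3 on the other, against 2 of the 9 receptors, Cd36 and Cxcl16.

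Cxcl16 expected counts were not whole in 6 of 6 libraries. In GENCODE M21 it shares 552 exon bases with Zmynd15 on the opposite strand. Zmynd15 measured 6.88, 12.5 and 17.2 CPM in untreated libraries 1, 2 and 3 and 2.62, 2.19 and 27.3 CPM with oxLDL, which was 3.13% to 4.85% of the Cxcl16 level in every library. The library kit was stranded, per the labels' protocols, but the strand setting of the counting is not given in the sources used here, so reads from the shared bases cannot be told apart between these genes.

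Olr1 encodes LOX-1, the lectin-like receptor for oxidised LDL best known from endothelium. It was the only receptor of the 10 under the count filter and was not tested. The libraries numbered 3 held 15 counts untreated and 16 counts with oxLDL (1.01 and 1.17 CPM), and the other 4 libraries held 0 counts, which allows a level of up to 0.199 to 0.216 CPM at a limit of 3 counts per library. These limits cover counting error only. No fold change is given, since the counts were in the libraries of a single number and were nearly equal in both groups.

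Over the 10 receptors, mean levels per kilobase of exon ran from 802 CPM per kb for Cd68 to 0.0946 CPM per kb for Olr1 in untreated libraries, with Cd36 (179), Cxcl16 (106), Marco (85.2), Scarb1 (56.0), Msr1 (48.8), Stab1 (41.7), Scarb2 (19.3) and Colec12 (10.1 CPM per kb) between them. Neighbours from Cxcl16 to Stab1 in this order lay within their spread over libraries (SD of 22.4 to 87.7 CPM per kb). With oxLDL Cd68 (1215), Cd36 (271) and Cxcl16 (102 CPM per kb) kept the top 3 places by mean. The third place rested on oxLDL library 3, since Cxcl16 was at 29.1, 25.9 and 250.5 CPM per kb in oxLDL libraries 1, 2 and 3, below Scarb1 in library 1 and below Scarb2 in library 2. Scarb2 was next at 25.0 ± 3.58 CPM per kb and Marco was at the ninth place at 8.72 ± 7.74 CPM per kb (SD, n = 3), within the spread of Colec12 (10.03 ± 7.11 CPM per kb). Scarb2, Scarb1 (21.1) and Msr1 (19.3 CPM per kb) lay within their spread there. Exon lengths are those of GENCODE M21, which may differ from the annotation behind the counts. All 10 receptors together took 0.280% to 0.286% of the counts in untreated libraries and 0.363%, 0.345% and 0.290% in oxLDL libraries 1, 2 and 3. In these bulk samples, fewer cells that express a receptor and less of its RNA per cell cannot be told apart.

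**Figure D3:**
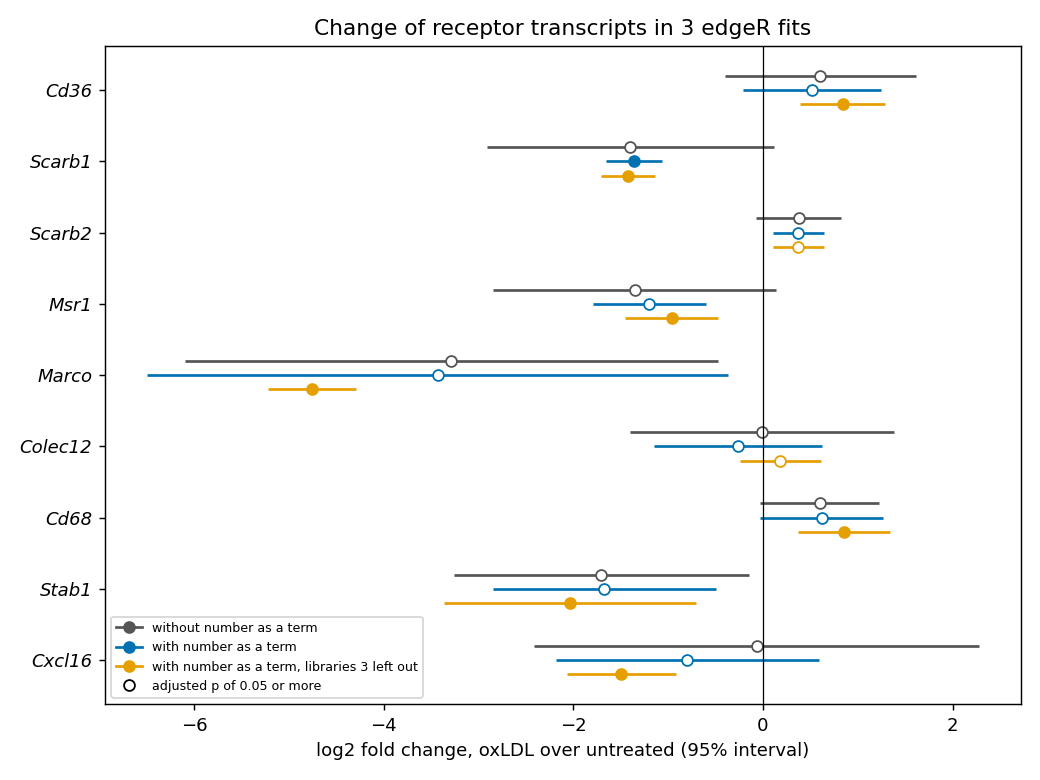
Log2 fold change of oxLDL over untreated with its 95% interval for the 9 tested receptors in 3 edgeR fits, without the library number as a term, with it, and with it after leaving out the libraries numbered 3. Filled points passed an adjusted p of 0.05: 0 receptors in the first fit, Scarb1 in the second, and 7 receptors, all but Scarb2 and Colec12, in the third.

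Genes around these receptors were described from lists of other receptors, partners and regulators. In the list of other lipoprotein and scavenger receptors, 14 of 17 genes could be tested, of which 1 rose and 1 fell with the number as a term, and 0 passed without it. Over all tested genes 1.91% rose and 3.98% fell with that term. DESeq2 with the number as a term passed 2 of the 14 as higher and 2 as lower (6.17% and 10.1% of all genes). The list's median log2 fold change was -0.31, against 0.01 over all tested genes. Scarf1, the class F scavenger receptor, measured 25.8, 33.9 and 18.9 CPM in untreated libraries 1, 2 and 3 and 10.5, 9.43 and 7.65 CPM with oxLDL, and it fell (log2 fold change -1.49 ± 0.17, edgeR adjusted p = 0.0287). All oxLDL libraries were below all untreated ones. Lrp8, the apolipoprotein E receptor 2 of the LDL receptor family, measured 4.54, 2.30 and 44.5 CPM untreated and 26.6, 39.2 and 167 CPM with oxLDL. It rose in the fit with the number as a term (log2 fold change 2.73 ± 0.45, edgeR adjusted p = 0.0454), not in the fit without it (adjusted p = 0.492), and its groups overlapped because untreated library 3 was above oxLDL libraries 1 and 2.

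Trafficking and uptake adaptors had 10 of 11 genes tested, and 0 passed in either edgeR fit, with a median log2 fold change of 0.01. DESeq2 with the number as a term passed 2 as higher and 2 as lower (6.17% and 10.1% of all genes). Without the number as a term the largest value was that of the clathrin adaptor Dab2 (-1.55 ± 0.73), at 959, 1138 and 182 CPM untreated and 406, 218 and 154 CPM with oxLDL (-1.29 ± 0.44, edgeR adjusted p = 0.145 with the number as a term). Among 13 CD36 partners and signalling genes, all tested, 1 fell and 0 rose with the number as a term (3.98% and 1.91% of all tested genes), and 0 passed without it. DESeq2 with the number as a term passed 1 as higher and 3 as lower (6.17% and 10.1% of all genes), and the median was -0.24. Lyn, a Src-family kinase that signals downstream of CD36, fell from 527, 418 and 173 CPM in untreated libraries 1, 2 and 3 to 124, 112 and 75.8 CPM (log2 fold change -1.73 ± 0.21, edgeR adjusted p = 0.0307). Its groups did not overlap. The tetraspanin Cd9, which associates with CD36, measured 28.6, 60.5 and 76.9 CPM untreated and 216, 321 and 135 CPM with oxLDL, and its value of 2.06 ± 0.46 did not pass (edgeR adjusted p = 0.0729).

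All 6 genes of the SR-BI and HDL exchange list were tested and 0 passed in either edgeR fit, with a median log2 fold change of -0.000905. DESeq2 with the number as a term passed 1 as lower (10.1% of all genes). Pltp, the phospholipid transfer protein, measured 2624, 2451 and 1198 CPM untreated and 932, 466 and 734 CPM with oxLDL, and its value of -1.53 ± 0.37 did not pass (edgeR adjusted p = 0.0774). Of 10 lysosomal partners of LIMP-2 and CD68, 9 were tested and 0 passed in either edgeR fit, with a median of 0.49. DESeq2 with the number as a term passed 3 as higher (6.17% of all genes). Psap, the precursor of the saposins, measured 9331, 11303 and 12873 CPM untreated and 22776, 21332 and 14804 CPM with oxLDL (0.80 ± 0.33, edgeR adjusted p = 0.192). Of the CXCL16 receptor and its sheddases, Adam10 and Adam17 were tested and 0 passed, also by DESeq2 with the number as a term, and Adam17 had a value of -0.46 ± 0.21 (edgeR adjusted p = 0.230). Cxcr6 was under the count filter.

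All 15 transcriptional regulators were tested. With the number as a term 2 fell and 1 rose (3.98% and 1.91% of all tested genes), and 0 passed without it. DESeq2 with the number as a term passed 2 as higher and 4 as lower (6.17% and 10.1% of all genes). The median log2 fold change was -0.14. Spi1, which encodes PU.1, fell from 490, 403 and 234 CPM in untreated libraries 1, 2 and 3 to 198, 190 and 119 CPM (-1.13 ± 0.14, edgeR adjusted p = 0.0302), and its groups did not overlap. Nr1h3, which encodes the oxysterol receptor LXR alpha, fell from 12.3, 18.4 and 42.7 CPM to 7.25, 7.63 and 14.1 CPM (-1.23 ± 0.20, edgeR adjusted p = 0.0452). The Nr1h3 groups overlapped, since oxLDL library 3 lay above untreated library 1. Cebpa, a myeloid transcription factor, rose from 32.6, 35.1 and 25.9 CPM to 48.6, 55.4 and 53.3 CPM (0.76 ± 0.13, edgeR adjusted p = 0.0483). Pparg, the nuclear receptor known to drive Cd36, and Nfe2l2, which encodes NRF2, did not pass (-0.60 ± 0.31 and 0.28 ± 0.15, edgeR adjusted p = 0.267 and 0.281).

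Without the libraries numbered 3, edgeR with the number as a term passed 14% of all genes as higher and 15.8% as lower. In that fit 2 of the 14 other lipoprotein and scavenger receptors were higher and 5 lower, as were 2 and 2 of the 10 adaptors and 2 and 5 of the 13 CD36 partners. Of the 6 SR-BI and HDL genes 0 were higher and 1 lower, of the 9 lysosomal partners 5 and 0, of the 2 sheddases 0 and 1, and of the 15 regulators 2 and 4.

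**Figure D4:**
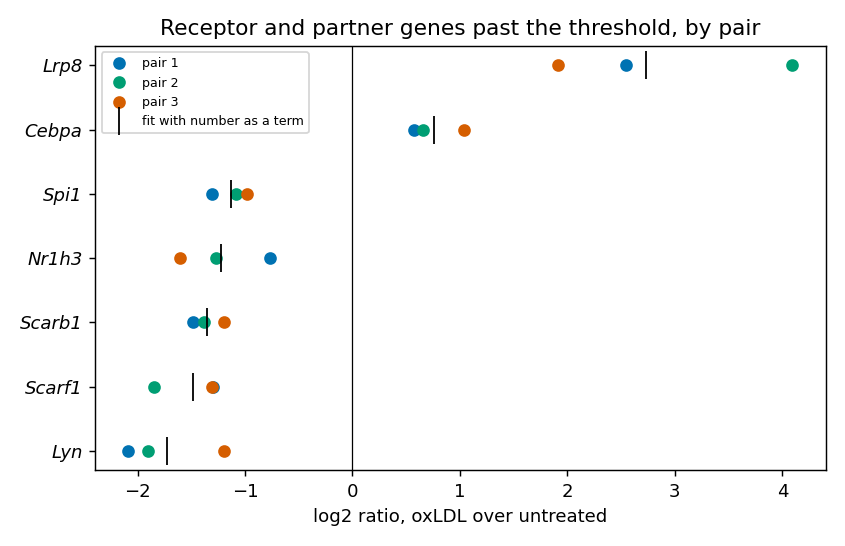
Log2 ratio of oxLDL over untreated in each numbered pair (points) and in the edgeR fit with the number as a term (bars) for Scarb1 and the 6 genes of the surrounding lists that passed an adjusted p of 0.05 in that fit. The 3 pairs lie on the same side of 0 for every gene, from 1.91 to 4.09 for Lrp8 and from -2.09 to -1.19 for Lyn. The genes were chosen by that fit, which favours pairs that agree. Among all tested genes, 53.1% had the same direction in all 3 pairs.

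Genes most like a receptor in pattern were sought by Pearson correlation of log2 CPM over the 6 libraries among 8634 genes, as a description. Those closest to Scarb1 were Pias1 (r = 0.998), Ptpn6 (0.998) and Tor4a (0.997), and those closest to Msr1 were Kbtbd7 (0.997), BC024978 (0.987) and Litaf (0.984). For Marco they were Tmem170b (0.994), Kdm2a (0.993) and Abhd17c (0.991), and for Cd36 they were Ppp1r37 (0.980), Cyb5 (0.977) and Atic (0.974). The 6 points share their libraries and the difference between groups.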

How the data were processed

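Bulk RNA of 6 mouse macrophage samples was sequenced after poly(A) selection with a stranded kit, per the labels' protocols. The authors deposited expected counts estimated with RSEM 1.2.15 over Bowtie2 2.1.0 alignments, per the submitters' processing notes, which also list edgeR and the human build hg19. Which annotation was counted is not given in the sources used here, so gene lengths come from another annotation, GENCODE M21. The other deposited table gives a normalised signal: CPM relative to library sizes that the authors scaled with TMM, per the file headers and name. Its values were whole multiples of what 1 read is worth in 100% of cases (tolerance 0.005), and at least 99.9% equalled the rounded expected counts. In each library 9.95% to 10.6% of the expected counts were not whole (same tolerance), and they were rounded before testing.

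Levels are the deposited TMM-scaled CPM. Genes were filtered with filterByExpr (minimum count 10, minimum total 15), scaled with TMM and tested with edgeR 4.0.16 (robust quasi-likelihood, R 4.3.3), oxLDL against untreated, with Benjamini-Hochberg adjustment over all 11400 genes tested. Group was the only term in the main design, and the library number was added as a block in an alternative. Deviations from the group means correlated between libraries of the same number at r = 0.70, 0.50 and 0.72 across 8854 genes. These values were above the limit of 0.1 set for pairing, but some libraries of unlike number passed it too. Untreated library 2 correlated with oxLDL library 1 at 0.71, and untreated library 1 with oxLDL library 2 at 0.295. The check therefore cannot decide how the libraries numbered 1 and 2 pair, and it is no evidence for the block there. The numbers come from the titles and were taken to pair the libraries. DESeq2 1.42.0, limma 3.58.1 (voom, and limma-trend with pseudocounts of 1 and 0.1), RLE size factors, no filter and leaving out libraries were further alternatives. The scripts were tested on simulated data. Standard errors (SE) are fold changes divided by the root of the F statistic. Whether libraries came from separate cultures is not said in the labels, so the p-values describe the spread between these libraries, which may be technical. RefSeq windows and GENCODE M21 exon lengths (GRCm38) were used for sequence and for levels per kilobase.

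The receptors and gene lists were chosen with earlier results of these data known. Named were all 10 receptors, genes of the surrounding lists (cell type markers aside) past the threshold in either edgeR fit, and otherwise the gene of such a list with the largest absolute fold change in the main fit. Cd9, the largest of a list that had another gene past the threshold, and Pparg, Nfe2l2, Adam10 and the markers Fcgr1, Aif1, Cd79b, Acp5 and Ctsk were named outside this rule, after their values were seen.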

Additional observations from a re-analysis of the deposited data

How the results depend on the processing

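The count of genes past the threshold was 0 in the main edgeR design and depended on the setting. It was 672 with the replicate block, 872 with DESeq2, 1853 with DESeq2 and the replicate block, 10 with limma-voom, 8 with no filter, 11 and 12 with limma-trend at pseudocounts of 1 and 0.1, and 0 with RLE size factors or with whole reads recovered from the deposited values. Leaving out a library each gave 0 to 737 genes without the block (737 without untreated library 3, 31 without oxLDL library 3), and leaving out a pair each gave 0 to 3446 with it (3446 without pair 3). Leaving out both libraries numbered 3 without the block, a setting chosen after seeing the data, as was that on recovered reads, gave 3132. The count of receptors was 0 in the main design, 1 with the replicate block (Scarb1), 1 with DESeq2 (Marco), 4 with DESeq2 and the replicate block, 0 in each fit that left out a library, 0 to 7 when a pair was left out of the blocked fit (7 without pair 3) and 5 without the libraries numbered 3 and without the block. The calls changed with pair 3 and with the block, and the cause was not tested.

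Of 171 values over 9 receptors and 19 alternatives, 145 kept direction and side of the threshold, 18 kept direction and passed it, and 8 reversed. The reversals were those of Colec12, -0.01 in the main design and 0.18 in the blocked fit without pair 3, 0.24 without both libraries numbered 3, and -0.69 to 0.39 when a library was left out (0.18, 0.05 and 0.39 in the reversed fits), and of Cxcl16, -0.07 in the main design and -1.95 to 0.39 when a library was left out (0.36, 0.37 and 0.39 in the reversed fits). The cause was not tested. Depth limited Olr1, with at most 16 counts in a library.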
